A study of Mus musculus with 4 samples.

Results

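Hyaluronan is a long, unbranched sugar polymer of the extracellular matrix, and the genes described here make it, bind it or break it down. The set was fixed by name as Has1, Has2, Has3, Vcan, Tnfaip6, Cd44, Hmmr, Hyal1 and Hyal2, and every non-control probe whose gene name in the array files equals one of these was taken. This gave 9 of the 50090 gene names on the array and 16 of its 61307 probes. Of the 9 genes, 7 were well above background, by the scanner's own flag, on all 4 arrays and were tested. Has1 and Has3 were not well above background on any array.

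The cells were C3H10T1/2, an immortalised, contact-inhibited mouse embryo fibroblast line used to score chemical transformation. Both control samples were unexposed cells kept in culture for 6 weeks, with no vehicle named. The 2 exposed samples received 3-methylcholanthrene (3MC), a polycyclic hydrocarbon carcinogen, at 2.5 µg/ml for 2 days, followed by 4 days in normal medium. They then received the phorbol ester tumour promoter 12-O-tetradecanoylphorbol-13-acetate (TPA) at 100 ng/ml during 2 weeks and 4 weeks of normal medium. Their titles also give 6 weeks of culture, and do not say from which step these were counted. All 4 samples grew in serum-containing DMEM, and RNA came from flasks parallel to those stained for foci. The labels name no picking of foci, so any foci and the cells around them were in 1 RNA sample. The question is how the RNA of the cells differed after this schedule.

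Hyaluronan is spun out at the plasma membrane by 3 synthases, Has1 to Has3, from UDP-glucuronic acid and UDP-N-acetylglucosamine. Outside the cell it is organised into pericellular and matrix coats by binding proteins such as versican (Vcan) and TSG-6 (Tnfaip6), and cells hold it through CD44. Hyaluronidases cut it, and fragments are degraded in lysosomes; fibroblasts are a main producer, with Has2 the synthase known best in mesenchymal cells.

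The sequences of 3 of the 60-base probes are shown: those of Vcan and Cd44 because the text turns on which transcripts they read, and that of Hmmr because its 2 probes read the same curated transcript. Capitals mark the complete codons of the only forward reading frame without a stop, each probe is written 5′ to 3′, and positions in the genome were not used here because the array files list these probes as unmapped.
Vcan, probe 1: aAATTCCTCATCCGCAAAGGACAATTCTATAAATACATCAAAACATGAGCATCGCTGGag
Cd44, probe 3: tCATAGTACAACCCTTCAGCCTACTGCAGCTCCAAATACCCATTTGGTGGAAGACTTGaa
Hmmr, probe 2: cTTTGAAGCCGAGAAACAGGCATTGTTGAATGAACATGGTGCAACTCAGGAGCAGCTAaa
The Vcan probe is listed for 4 of the 5 curated versican transcripts in the RefSeq gene table. The Cd44 probe is listed for 2 of the 3 transcripts that the other Cd44 probes name, out of 6 curated in that table.

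Levels below are log2 processed signals relative to the 75th percentile of their own array, and changes are 3MC+TPA minus control with the standard error of a limma fit over 24980 genes. A gene is called when its adjusted p (limma, Benjamini-Hochberg over those genes) is below 0.05. The arrays correlated at 0.9912 between the control samples, 0.9884 between the 3MC+TPA samples and no lower than 0.9461 between groups, over 24919 genes. Of all genes tested, 15.8% were called, 7.47% as higher and 8.35% as lower, and the median change was -0.01. Without scaling between arrays that median was 0.34, so changes depend on the scaling and are stated relative to each array's 75th percentile. Fibroblast markers were well above background on all arrays in 11 of 11 cases. Of these, Thy1 rose by 2.98 on the log2 scale (limma adjusted p 0.046), and Pdgfra and Pdgfrb fell by 1.47 and 1.02 (0.02 and 0.022). Of 11 leukocyte markers, 5 including Ptprc were not well above background on any array. The summed leukocyte signal was 6530 to 9150 in control and 2150 to 2910 in 3MC+TPA samples. Cd74 alone gave 6080 to 8800 and 1780 to 2440 of these. Of 5 mesothelial markers, Msln rose by 5.07 on the log2 scale (limma adjusted p 0.006). Lrrn4 and Wt1 were well above background in 1 group alone, which favours a difference, so only bounds are given for them. Lrrn4 was at least 1.62-fold higher and Wt1 at least 11.4-fold lower in 3MC+TPA samples. The other 2 were not well above background on any array. The summed mesothelial signal was 385 to 472 in control and 6380 to 6940 in 3MC+TPA samples. Msln alone gave 91.9 to 259 and 6320 to 6860 of these. Summed epithelial marker signal (9 genes, Cdh1 not well above background) was 167 to 193 and 211 to 245. Summed endothelial signal (6 genes, Pecam1 and Cdh5 not well above background) was 79.2 to 82.1 and 97 to 137. Among the endothelial markers Tek, not well above background in control samples, was at least 1.77-fold higher, and Vwf (-0.79) was not called. The part of these markers in the results below was not tested. In RNA from whole cultures, fewer cells of a type and less RNA per cell cannot be told apart. Control samples lay in the first 2 positions of the slide and exposed samples in the next 2, so position and group cannot be told apart. Nothing names separate cultures for a group's arrays, and the design text speaks of hybridisation in duplicate, so the p-values may rest on technical spread alone.

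Of the 9 hyaluronan genes, 3 of the 7 tested were called, where 15.8% of all genes were. Hyal1 rose, Has2 and Tnfaip6 fell, and Vcan was lower in both exposed samples without passing the threshold. The median change over the 7 was -0.53, against -0.01 over all genes. In 5 of the 7 (Has2, Vcan, Tnfaip6, Hyal1 and Hyal2) the 2 groups did not overlap, which was so for 63.9% of the 24919 genes with a value on every array. Leaving out control replicate 1 gave a median of -1.10, leaving out control replicate 2 one of -0.32, and no scaling between arrays one of -0.18.

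**Figure D1:**
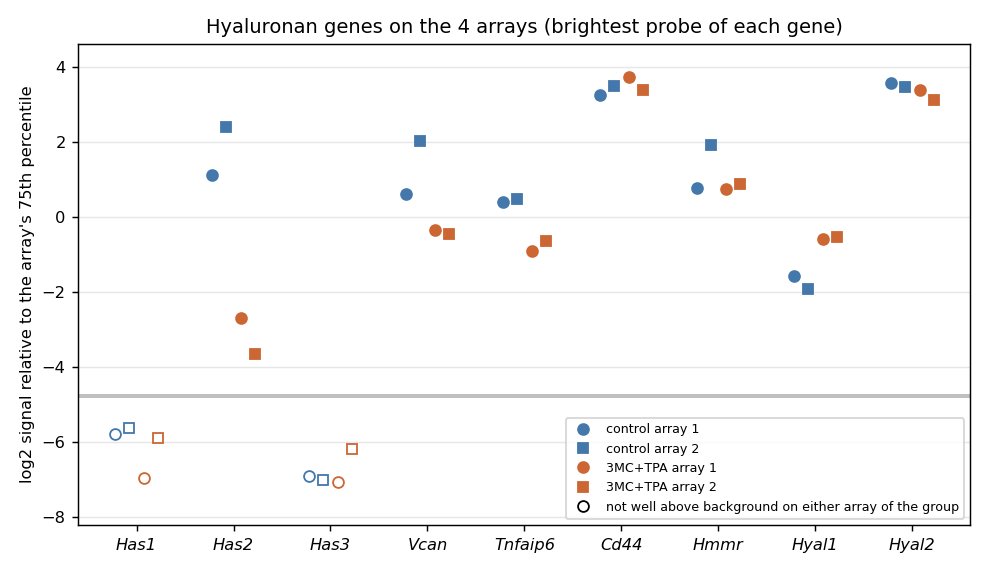
Log2 level of the brightest probe of each hyaluronan gene on each of the 4 arrays (log2 processed signal relative to the 75th percentile of the same array); blue is control and orange 3MC+TPA, circles are replicate 1 and squares replicate 2, open symbols are not well above background, and the grey band spans the dimmest signals above background. Has2 lies at 1.12 and 2.40 in control and at -2.68 and -3.64 in 3MC+TPA samples, and Has1 and Has3 lie below the band.

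Of the synthases, Has2 was the one measured above background, and it fell. Has2 is read by 1 probe alone. Its level was 1.12 and 2.40 in the control samples and -2.68 and -3.64 in the 3MC+TPA samples, corresponding to processed signals of 1180 and 3140 against 109 and 59.8. The lower control value stood far above both exposed values. The group means were 1.76 ± 0.90 and -3.16 ± 0.68 (SD, n = 2 each), a change of -4.93 ± 0.52 (95% confidence interval -6.26 to -3.59), or 30.4-fold lower, with a limma adjusted p of 0.0062. By size this change ranks 133 of the 24980 genes tested. The fall was -5.56 without control replicate 1 and -4.29 without control replicate 2, and -4.06 with normexp background correction and an offset of 50, a setting called normexp from here on. The call ended when dim probes were not filtered (limma adjusted p = 0.0718) and under the methods' t-test after Benjamini-Hochberg adjustment (0.18).

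Has2as, a transcript antisense to Has2 in the array's naming and lying within its span in the RefSeq table, was looked up after its values were seen. It read -3.53 and -3.24 in control samples and -6.92 and -6.98 in 3MC+TPA samples, where it was not well above background. It was at least 2.68-fold lower in the exposed samples, given as a description with no test. For such a bound the brighter group's mean is set against a floor on each dim array, which is its dimmest signal well above background or, where higher, the probe's own. Which strand each probe reads is taken from the gene names in the files.

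Has1 (-5.77 and -5.62 in control, -6.95 and -5.89 in 3MC+TPA) and Has3 (-6.90 and -7.00, -7.06 and -6.18) lay below the dimmest signal called above background, which was -4.72 to -4.82 on the 4 arrays. They were not detectable here, and no direction is given for either.

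**Figure D2:**
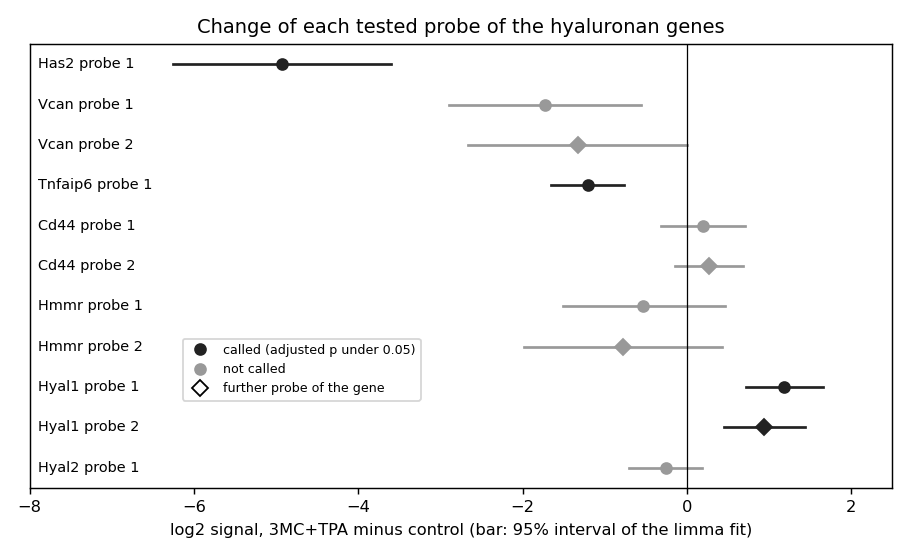
Log2 change (3MC+TPA minus control) of each tested probe of the hyaluronan genes with its 95% confidence interval, black where the limma adjusted p is below 0.05 and diamonds for further probes of a gene. Has2 at -4.93, Tnfaip6 at -1.21 and Hyal1 at 1.18 and 0.94 are black, and the intervals of Cd44, Hyal2 and Hmmr include 0.

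Versican, the large chondroitin sulfate proteoglycan that binds hyaluronan through its link modules, was lower in both exposed samples but was not called. Probe 1, whose sequence is given above, read 0.62 and 2.01 in control and -0.36 and -0.47 in 3MC+TPA samples. The control samples lay far apart and the exposed samples close together, and the groups did not overlap. The change was -1.73 ± 0.46 (95% confidence interval -2.91 to -0.56), 3.32-fold lower, with a limma adjusted p of 0.066. Without control replicate 1 the change was -2.43, and without control replicate 2 it was -1.04. Both settings drop the gap between the control samples, so calls under them support nothing. Vcan was called under normexp (-1.59, limma adjusted p 0.0337) and when all 4 arrays had to be above background (0.0381).

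The other versican probes were dimmer. Probe 2, listed for all 5 curated transcripts, read -3.85 and -2.50 in control and -4.94 and -4.07 in 3MC+TPA samples. Its change was -1.33 ± 0.52 with a limma adjusted p of 0.15. It was well above background on both control arrays but on only 1 of the 3MC+TPA arrays, so it passed the filter through the control samples. Probes 3 and 4 are listed only for the remaining curated transcript. Probe 3 was well above background on 1 control array (-3.61, against -4.89 on the other and -7.13 and -7.11 in 3MC+TPA samples), and probe 4 on none, so neither was tested.

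TSG-6, the product of Tnfaip6, is secreted and cross-links hyaluronan by passing heavy chains from inter-alpha-inhibitor to it. Tnfaip6 read 0.40 and 0.48 in control and -0.90 and -0.64 in 3MC+TPA samples, processed signals of 717 and 831 against 376 and 479. Both exposed values lay below both controls, on the 1 probe of this gene. The means were 0.44 ± 0.06 and -0.77 ± 0.18 (SD, n = 2 each), and the gene fell by 1.21 on the log2 scale (± 0.17; 95% confidence interval -1.64 to -0.78), 2.31-fold, with a limma adjusted p of 0.013. The call ended without 3MC+TPA replicate 1 (limma adjusted p 0.0659) and without 3MC+TPA replicate 2 (0.051), without a filter on dim probes (0.0649) and under the methods' t-test (0.152).

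The Tnfaip6 promoter is the one of the 7 hyaluronan gene promoters in the RefSeq table with a match to TGANTCA, the core of the AP-1 site through which phorbol esters are known to act. It is printed for that reason, from GRCm38.p6, chr2:52037863-52038162, + strand, covering 250 bases before the start to 50 after it, with the match TGAGTCA in capitals.
Tnfaip6 promoter: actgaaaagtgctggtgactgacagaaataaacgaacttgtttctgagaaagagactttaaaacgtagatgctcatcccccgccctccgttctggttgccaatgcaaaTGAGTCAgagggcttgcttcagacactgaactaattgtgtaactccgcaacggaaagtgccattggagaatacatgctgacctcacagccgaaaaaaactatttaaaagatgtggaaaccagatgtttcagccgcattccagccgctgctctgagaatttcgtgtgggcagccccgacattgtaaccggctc
The match begins 142 bases before the start; both strands were searched, and 7.81% of the 32851 promoters of this length in the table hold one. A match is a description of letters, and the RNA was taken 4 weeks after the last TPA.

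CD44, the main cell-surface hyaluronan receptor, did not pass the test on any probe. Probe 1 read 3.23 and 3.49 in control and 3.72 and 3.38 in 3MC+TPA samples, so the groups overlapped. Its change was 0.19 ± 0.20 (95% confidence interval -0.32 to 0.70), with a limma adjusted p of 0.55. Probe 2 read 1.94 and 1.94 against 2.11 and 2.31, a change of 0.27 ± 0.16 with a limma adjusted p of 0.30. The upper end of the first interval leaves a rise of 0.70 on the log2 scale possible. Probe 3, shown above, read -6.01 and -6.91 in control and -6.95 and -6.67 in 3MC+TPA samples and was not well above background on any array, so the transcripts it is listed for were not detected by it. Esrp1 and Esrp2, splicing factors that include CD44 variable exons in epithelial cells, were not well above background on any array either.

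Hmmr encodes RHAMM, a hyaluronan-binding protein that also sits on the mitotic spindle. Its brighter probe read 0.78 and 1.91 in control and 0.75 and 0.88 in 3MC+TPA samples. Control sample 2 stood above the other 3, and the groups overlapped. The change was -0.53 ± 0.39 (95% confidence interval -1.52 to 0.46), with a limma adjusted p of 0.39, and the second probe (-2.50 and -1.46 against -2.26 and -3.25) changed by -0.78 ± 0.47 with an adjusted p of 0.31. Without control replicate 1 the change was -1.10, and without control replicate 2 it was 0.04. Either setting drops the gap between the control samples, so no call is read from it. Among the 7 promoters, Hmmr and Has1 hold TTTGAA, the letters of the cell cycle gene element known as CHR, 9 bases after and 45 bases before the start, as do 17.9% of all promoters in the table. GCGTG, the core that the dioxin receptor bound by 3MC recognises, was found in the Hyal2 promoter, as in 32.4% of all.

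**Figure D3:**
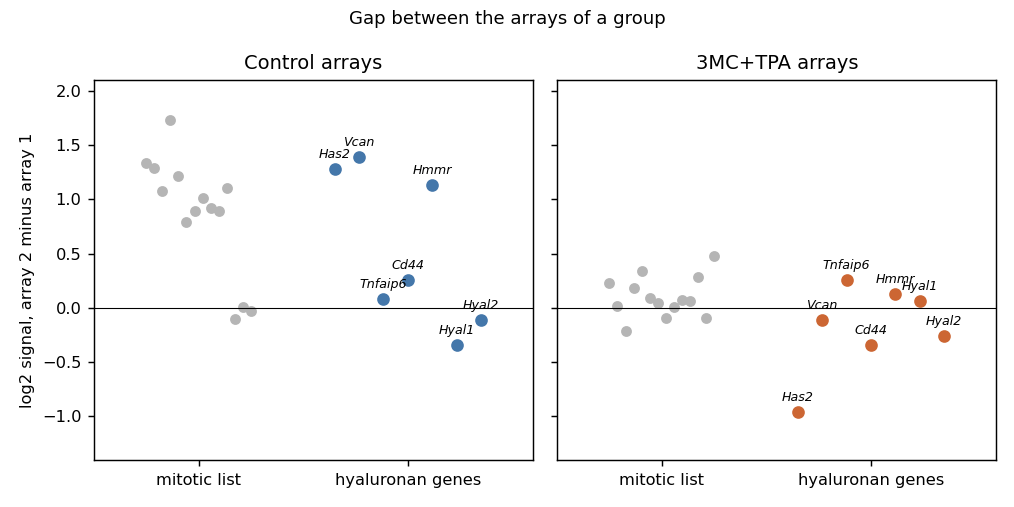
Difference between the 2 arrays of each group (array 2 minus array 1, log2), with the 14 tested genes of the mitotic list in grey and the 7 tested hyaluronan genes in colour, control on the left and 3MC+TPA on the right. Has2, Vcan and Hmmr lie with most of the mitotic genes in the control pair; the median of the mitotic list is 0.97 in the control pair and 0.07 in the 3MC+TPA pair.

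The gene list for RHAMM's partners and for mitosis had 15 members, of which 14 were tested and 0 were called by their brightest probe. With each probe fitted on its own, 1 of the 2 Brca1 probes was called lower, beside 15.5% of all tested probes called. At an unadjusted limma p below 0.05 there were also 0, against 33.7% of all genes tested. The list's median change was -0.46, and its most changed gene, Ccnb1 of cyclin B, stood at -0.90 ± 0.57 (limma adjusted p 0.32). The median level was 1.62 and 3.14 in the control samples and 1.74 and 1.81 in the 3MC+TPA samples, so control sample 2 stood apart in mitotic genes as it did for Hmmr. Has2 and Vcan were also higher in control sample 2 than in control sample 1 (2.40 against 1.12, and 2.01 against 0.62). Without control replicate 1, 8 of the 14 were called, all lower, and without control replicate 2 there were 0, with a median of 0.03. Against control sample 1 alone, Has2 still changed by -4.29 and was called. The part of the gap between control arrays in the Hmmr and Vcan values was not tested.

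Hyaluronidase 1, the lysosomal enzyme that cuts hyaluronan into small fragments, rose. Hyal1 probe 1 read -1.57 and -1.91 in control and -0.59 and -0.53 in 3MC+TPA samples, processed signals of 182 and 158 against 466 and 516. Both exposed values were above both controls. The means were -1.74 ± 0.24 and -0.56 ± 0.04 (SD, n = 2 each), a change of 1.18 ± 0.18 (95% confidence interval 0.72 to 1.64), 2.27-fold, with a limma adjusted p of 0.016. The second probe (-1.48 and -1.88 against -0.73 and -0.74) rose by 0.94 ± 0.19 with an adjusted p of 0.034 over all tested probes, of which 15.5% were called, but shares 50 of its 60 bases with the first and is no separate measurement of the transcript. The call ended without control replicate 2 (1.01, limma adjusted p 0.0504), without 3MC+TPA replicate 1 (1.21, 0.0781), without 3MC+TPA replicate 2 (1.15, 0.0888), with no filter on dim probes (0.0803) and under the methods' t-test (0.168).

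Hyaluronidase 2, anchored to the cell surface and encoded by a neighbour of Hyal1, did not pass. It read 3.57 and 3.46 in control and 3.38 and 3.12 in 3MC+TPA samples, all lower in the exposed pair by a small margin. The change was -0.26 ± 0.17 (95% confidence interval -0.70 to 0.17), with a limma adjusted p of 0.34, and without scaling between arrays its sign turned (0.08).

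**Figure D4:**
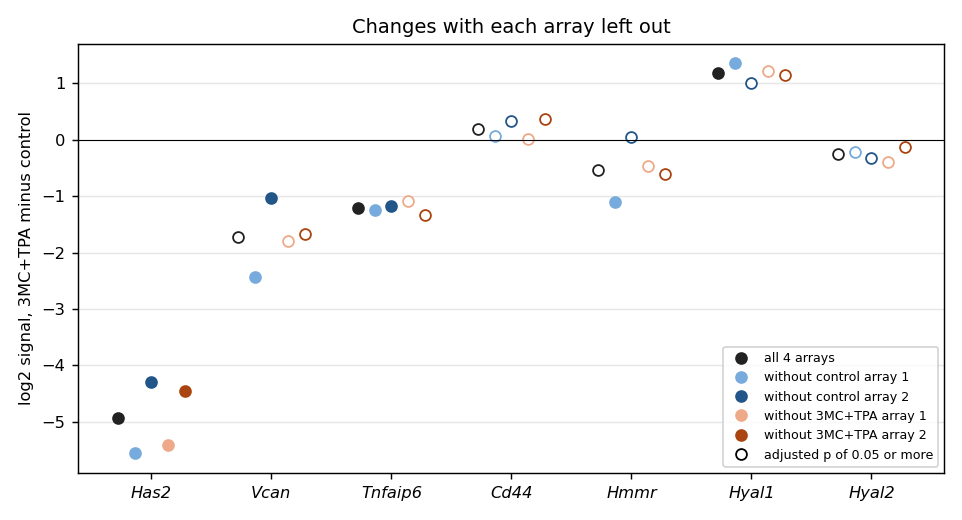
Log2 change of each tested hyaluronan gene from all 4 arrays and with each array left out in turn, open where the adjusted p is 0.05 or more. Has2 stays filled throughout (-5.56 to -4.29), while Tnfaip6 and Hyal1 are open without either exposed array, and Hyal1 also without control array 2.

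The lists that follow hold other genes of the same pathway. They were chosen with earlier results of these data known, and each is described by its counts and median beside those of all genes. Over the lists 18 genes were called. Of these, Ncan, Itih3, Cemip and Mmp9 were well above background in their brighter group alone and passed the filter through it. The filter thus favoured a difference, and their calls support nothing. Bounds are given for them. Of the 18 calls, 0 held under the methods' t-test after adjustment and 4 (Ncan, Cemip, Fbn2 and Spp1) held without the filter on dim probes. Leaving out any 1 array leaves a group with a lone sample, whose spread is then taken from the other group.

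Precursor synthesis counted 0 higher and 1 lower of 13 tested (14 members), where 7.47% and 8.35% of all genes were called higher and lower. Ugp2 was not called by its brightest probe, but 1 of its 2 probes was called lower. The median was -0.14, against -0.01 over all genes. Ugdh, which makes UDP-glucuronic acid, read 4.61 and 4.95 against 4.64 and 4.49 (change -0.22, limma adjusted p 0.46). Pgm2, a phosphoglucomutase, read 5.23 and 5.16 against 4.50 and 4.47 and fell by 0.71 on the log2 scale (limma adjusted p 0.036). Its call ended in 9 of 15 alternative settings, including each single array left out (limma adjusted p 0.102 to 0.142).

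Other hyaluronan binders counted 2 higher and 3 lower of 15 tested (24 members), where 15.8% of all genes were called. These counts include Itih3 (higher) and Ncan (lower), whose calls support nothing. The median was -0.20, against -0.01. Ptx3, a pentraxin that works with TSG-6 and inter-alpha-inhibitor in cross-linking hyaluronan, read 5.18 and 5.69 in control and 4.19 and 4.01 in 3MC+TPA samples, and fell by 1.33 ± 0.22 (limma adjusted p 0.021, both probes lower). Ncan, neurocan, was not well above background in 3MC+TPA samples and was at least 1.38-fold lower there. Its call also ended without 3MC+TPA replicate 2. Cd248, endosialin of stromal cells, fell by 0.86 (0.036), with 1 of its 2 probes called and the call gone in 9 of 15 settings. Itih3, which carries a heavy chain of inter-alpha-inhibitor, was at least 1.74-fold higher than in control samples, where it was not well above background. This bound did not hold under normexp, where the change was 0.19 and the call ended. Itih2, another heavy chain gene, read 1.14 and 0.91 against 1.92 and 1.77 and rose by 0.82 ± 0.17 (0.035); it is the fifth call of this list by size, and it ended with any 1 array left out (0.0551 to 0.139). The link protein genes Hapln3 (-0.46, 0.13) and Hapln1 (not well above background), the receptor gene Layn (-0.71, 0.11) and Itih5 (-0.58, 0.16) were not called. With 3MC+TPA replicate 2 left out, 0 of the 5 calls held, and with replicate 1 left out, 1 did.

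Among the other turnover genes, 2 rose and 1 fell of 8 tested (12 members), beside 7.47% and 8.35% of all genes. The 1 that fell is Cemip, whose call supports nothing. The median was 0.47, against -0.01 over all genes. Cemip, a hyaluronan-degrading protein named 9930013L23Rik in the files, read -3.11 and -2.88 in control and -7.02 and -7.09 in 3MC+TPA samples, not well above background there. It was at least 3.52-fold lower, a bound that did not hold under normexp (change -1.41). Cemip2, the cell-surface hyaluronidase named Tmem2 in the files, read 0.84 and 0.62 against 2.03 and 2.37 and rose by 1.47 ± 0.19 (limma adjusted p 0.011). Its call ended without 3MC+TPA replicate 2 (0.0618) and without the filter (0.071). The lysosomal sialic acid exporter gene Slc17a5 rose by 1.12 ± 0.15 (limma adjusted p 0.012), a call that ended without either exposed array (0.067 and 0.0609). Hyal3 read -3.63 and -4.29 against -4.43 and -3.95 (change -0.23, adjusted p 0.63), Hyal4, Hyal6 and Spam1 were not well above background on any array, and Hyal5 was on 3MC+TPA sample 2 alone, at -3.39.

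**Figure D5:**
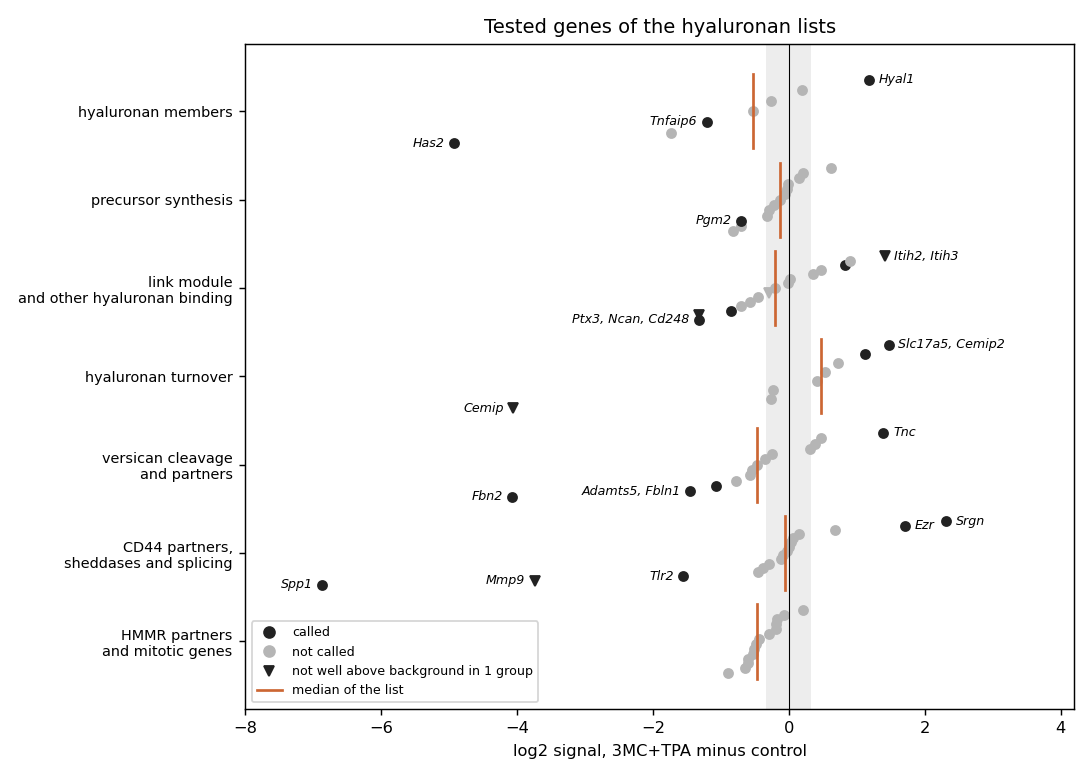
Log2 change of every tested gene in each hyaluronan-related list, black where called and a triangle where 1 group was not well above background; the orange line is the list's median and the grey band the middle of all genes (quartiles -0.34 and 0.33). Medians run from -0.53 for the 7 hyaluronan genes to 0.47 for turnover.

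Versican's proteases and matrix partners counted 1 higher and 3 lower of 13 tested (17 members), beside 15.8% of all genes called. Chst11 was not called by its brightest probe, but 1 of its 3 probes was called lower. The median was -0.47, against -0.01 over all genes. Fbn2, the microfibril protein fibrillin-2, read 1.31 and 1.15 in control and -3.07 and -2.60 in 3MC+TPA samples, and fell by 4.07 ± 0.21 on the log2 scale (limma adjusted p 9e-04), a call kept with each array left out. Adamts5, a protease that cuts versican, fell by 1.45 ± 0.19 (0.011) on both its probes. Fbln1, fibulin-1, fell by 1.07 (0.037) with 1 of 2 probes called, and its call ended in 8 of 15 settings. Tnc, the matrix protein tenascin-C that binds versican, rose from 0.51 and 0.21 to 1.86 and 1.63 (1.39 ± 0.19, limma adjusted p 0.012), on both its probes. Without 3MC+TPA replicate 1 the calls on Adamts5 and Tnc ended (0.0528 and 0.0661), as they did without replicate 2 (0.0698 and 0.0552).

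CD44's ligands, cytoskeletal partners and sheddases counted 2 higher and 3 lower of 16 tested (18 members), where 15.8% of all genes were called. The 3 lower include Mmp9, whose call supports nothing. The median was -0.06, against -0.01. Spp1, osteopontin, a secreted protein that CD44 binds, read 7.52 and 8.42 in control and 1.53 and 0.67 in 3MC+TPA samples. It fell by 6.87 ± 0.42 on the log2 scale, 117-fold (limma adjusted p 0.0014), and stayed called with each array left out. Mmp9, a gelatinase that docks on CD44, read -0.48 and -1.83 in control samples. It was not well above background in 3MC+TPA samples, where it was at least 12.6-fold lower. Its call also ended without 3MC+TPA replicate 1 or 2. The bound was 7.88-fold without control replicate 1 and 20.1-fold without control replicate 2, and 12.6-fold did not hold under normexp. Tlr2, a receptor that senses hyaluronan fragments, fell by 1.56 ± 0.17 (limma adjusted p 0.007; 0.0525 without 3MC+TPA replicate 2). Srgn, the proteoglycan serglycin, rose by 2.31 ± 0.42 (0.025; 1.18 under normexp), and Ezr, ezrin, named Vil2 in the files, rose from 0.17 and 0.95 to 2.46 and 2.07 (1.71 ± 0.31, limma adjusted p 0.026). Both lost the call without either exposed array (Srgn 0.115 and 0.0845, Ezr 0.118 and 0.0876). The other ERM genes, Rdx (0.03) and Msn (-0.29), were not called.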

How the data were processed

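RNA of 2 control and 2 3MC+TPA samples was read on 4 1-colour Agilent arrays on 1 slide. The authors name hybridisation in duplicate, which may mean 2 arrays of 1 RNA per group, and analysed the data with GeneSpring GX and a t test, per the series' design text. Spot intensity comes from Agilent Feature Extraction 10.7.3.1, per the file headers, and the processed signal is background-subtracted and detrended. The log2 table deposited by the authors equals log2 of the processed signal minus a constant per array, with at least 61236 of 61307 probes equal within 0.01 and column medians of -4.29, -4.31, -4.39 and -4.35; it was used as an alternative.

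Here log2 processed signals were scaled to the 75th percentile of each array without control spots (signals of 543.1, 595.2, 701.3 and 747.2). The 1319 control spots per array and the outlier spots (42, 20, 31 and 68) were left out, and 0 spots were saturated. On the arrays 32125, 32415, 32222 and 32512 spots were well above background; only 2 arrays a group limit the precision. A gene is a file gene name read by its brightest probe, tested when that probe was well above background on both arrays of a group. Groups were compared with limma 3.58.1 in R 4.3.3 (lmFit, eBayes, 2-sided, no covariates), adjusted over all 24980 genes tested. The fit was tested on simulated data.

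The genes, the lists and the rule for named genes were chosen with earlier results of these data known. The rule took all 9 hyaluronan genes, up to 4 called genes per list by size of change or the largest change where none was called, and Hapln1, Hapln3, Cemip, Cemip2, Ugdh, Ptx3, Itih5, Hyal3 and Layn. Has2as, Itih2, Hyal4 to Hyal6, Spam1, Tlr2, Rdx, Msn, Esrp1, Esrp2, Ugp2, Chst11, Brca1 and the cell type markers were named outside it. Sequences are RefSeq's, GRCm38.p6, with 7 of 9 genes matched to a promoter. Alternatives covered background correction, scaling, filters, probe choice, moderation, the replicate number as a block, each array left out and the methods' t-test.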

Additional observations from a re-analysis of the deposited data

How the results depend on the processing

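Of the hyaluronan genes, 3 were called, and the count was 3 to 4 under normexp with an offset of 50 (4), quantile normalization, no scaling, the deposited values, the stricter filter (4), mean probes, separate probes, trend and robust moderation and the replicate block. It was 0 without a filter on dim probes (4 at unadjusted limma p below 0.05) and 0 under the methods' t-test (3 unadjusted), and 1 to 5 with each array left out. The genes called over all were 6726 without scaling (79.1% of them higher, against 47.2%), 907 without the filter, 23 under the methods' t-test (5726 unadjusted) and 1183 to 3328 with each array left out. Without scaling, list medians were 0.20 for precursor synthesis, 0.15 for other binders, 0.82 for turnover, -0.12 for versican partners and 0.29 for CD44 partners. The precursor median was -0.10 under normexp, -0.22 from mean probes and -0.20 to -0.09 with each array left out. With each array left out the turnover median was 0.32 to 0.61 and that of CD44 partners -0.21 to 0.02. The cause of these differences was not tested.

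Same-numbered samples did not deviate together (r = 0.003 over 24919 genes), so replicate numbers are no pairing. With the replicate block 3589 genes were called, and Has2 (limma adjusted p 0.0103), Hyal1 (0.0257) and Tnfaip6 (0.0193) among them, while Pgm2, Cd248 and Fbln1 lost the call. Signals near background, as for Cemip and Itih3, limit the size of a fold.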
